A study of Mus musculus with 21 samples.

Results

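The genes of 10 circulating apolipoproteins were followed across 7 groups of mouse liver cells: Apoa1, Apoa2, Apoa4, Apoa5, Apob, Apoc1, Apoc3, Apoe, Apoh and Apom. They were taken by gene name from the array files, where all 10 were found among 37074 names. The groups held 3 one-colour Agilent arrays each, 21 arrays in all, of RNA from female C57BL/6 mice. Late CLiPs (chemically induced liver progenitors, cells grown out from mature hepatocytes; passage 11 or 12) were profiled after hepatic induction with oncostatin M and dexamethasone, after 8 days without these inducers, and at day 0 before induction. P1 CLiPs (passage 1) were profiled in the same 3 states, and freshly isolated hepatocytes served as the starting cells. By its label, replicate 3 of each late group came from passage 11, and replicates 1 and 2 came from passage 12. One fresh array carries a P1 passage label and was kept with the fresh group by its title. The labels do not say whether replicates were separate animals or cultures, so the p-values cover only how far these samples vary, which may be technical.

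Apolipoproteins coat the lipid particles that carry cholesterol and triglyceride in blood, and the hepatocyte makes most of them. Apob is the structural protein of very low density lipoprotein and Apoa1 that of high density lipoprotein. Apoe is a ligand for lipoprotein receptors, whereas Apoc3 and Apoa5 slow and speed the clearance of triglyceride. Apoa1, Apoc3, Apoa4 and Apoa5 lie side by side on chromosome 9, and Apoc1 and Apoe on chromosome 7.

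Levels are log2 signals relative to the 75th percentile of the same array, so 0 is the 75th percentile and a step of 1 is 2-fold. A gene is said to have risen or fallen where limma gave a Benjamini-Hochberg adjusted p under 0.05 over all tested genes and the change was at least 2-fold. Values are log2 fold changes ± SE, the first-named group over the second, with 3 arrays each. A probe that the scanner files do not flag as well above background on any array of a group is called dim there, and its fold change is then given as a minimum. The precision is limited by the number of arrays. The late arrays were read on another scanner with another software version than the P1 and fresh arrays, so passage, scanner and software cannot be told apart in late against P1 or fresh. Fresh arrays lay on slides of their own, so slide and group cannot be told apart in P1 against fresh. In bulk RNA, fewer cells of a type and less RNA per cell cannot be told apart.

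The cell labels were set against marker lists. The mean level of 10 hepatocyte markers ran from 1.66 to 3.65 in late induced, 1.27 to 1.83 in late uninduced and -0.08 to 0.77 in late day-0 CLiPs. It ran from 5.27 to 5.60 in P1 induced, 2.81 to 3.14 in P1 uninduced and 2.39 to 2.80 in P1 day-0 CLiPs, against 7.96 to 8.48 in fresh hepatocytes. Of 13 Kupffer cell and macrophage markers, 2 to 5 were well above background on the CLiP arrays, against 12 to 13 on the fresh arrays, and their mean level was -5.32 to -4.03 in CLiPs, against -1.16 to 0.59 in fresh hepatocytes. Adgre1, C1qa, C1qc, Cd163, Cd5l, Timd4 and Vsig4 were dim in all 6 CLiP groups, while Csf1r and Cd68 were well above background everywhere. The mean level of 10 stellate cell and fibroblast markers was -5.05 to -4.54 in late and -1.30 to 0.61 in P1 CLiPs, against -2.79 to -1.59 in fresh hepatocytes, with Acta2 well above background on every array and Dcn on every P1 and fresh array.

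Promoters of the chromosome 9 genes, of Apoh and Apob and of Apoe are shown so that the sequence before each start can be read beside the changes below. Windows of 250 bases before the start were taken from RefSeq (GRCm38.p6), which held them for 8 of the 10 genes, and Apoc1 and Apoc3 are named only. Capitals mark matches on either strand to CAAAGNNCA (the half-site pattern of HNF4-type nuclear receptors), TTGCNNAA (a C/EBP pattern) or TATAAA, none of which overlapped in the windows printed. TTCNNNGAA (a STAT pattern) and ACANNNTGT (a glucocorticoid receptor pattern) were searched as well and had no match in them.
Apoa1 (chr9:46228380-46228629, plus strand): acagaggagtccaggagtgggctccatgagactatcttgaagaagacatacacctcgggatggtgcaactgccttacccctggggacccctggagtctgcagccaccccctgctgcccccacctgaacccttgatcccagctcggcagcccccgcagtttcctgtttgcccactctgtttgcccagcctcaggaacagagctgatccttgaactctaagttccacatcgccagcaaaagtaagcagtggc
Apoa4 (chr9:46240594-46240843, plus strand): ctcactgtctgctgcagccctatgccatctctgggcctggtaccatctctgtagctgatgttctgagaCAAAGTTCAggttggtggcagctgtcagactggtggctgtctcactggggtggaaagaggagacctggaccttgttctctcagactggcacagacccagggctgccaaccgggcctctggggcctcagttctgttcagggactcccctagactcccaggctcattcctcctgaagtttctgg
Apoa5 (chr9:46268358-46268607, plus strand): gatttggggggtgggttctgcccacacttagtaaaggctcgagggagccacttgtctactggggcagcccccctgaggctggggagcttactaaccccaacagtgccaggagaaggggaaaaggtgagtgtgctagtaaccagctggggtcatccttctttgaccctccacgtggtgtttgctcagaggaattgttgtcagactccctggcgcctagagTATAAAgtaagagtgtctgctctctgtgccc
Apoh (chr11:108395047-108395296, plus strand): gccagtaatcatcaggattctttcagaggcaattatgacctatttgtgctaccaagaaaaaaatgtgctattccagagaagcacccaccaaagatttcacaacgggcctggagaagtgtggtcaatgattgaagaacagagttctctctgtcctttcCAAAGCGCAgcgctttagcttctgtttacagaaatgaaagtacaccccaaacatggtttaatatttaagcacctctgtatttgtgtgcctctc
Apob (chr12:7977427-7977676, plus strand): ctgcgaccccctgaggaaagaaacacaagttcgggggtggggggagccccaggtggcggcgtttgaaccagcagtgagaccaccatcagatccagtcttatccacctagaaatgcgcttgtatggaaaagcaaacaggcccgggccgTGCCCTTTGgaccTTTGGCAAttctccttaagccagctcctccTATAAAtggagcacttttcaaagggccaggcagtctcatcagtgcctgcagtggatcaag
Apoe (chr7:19699189-19699438, minus strand): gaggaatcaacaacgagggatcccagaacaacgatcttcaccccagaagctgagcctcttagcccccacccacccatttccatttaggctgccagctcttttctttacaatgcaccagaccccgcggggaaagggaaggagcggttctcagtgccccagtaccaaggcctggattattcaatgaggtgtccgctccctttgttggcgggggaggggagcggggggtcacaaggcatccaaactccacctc
The HNF4-type letters stood in 3 of the 8 first windows (Apoa4, Apoh and Apob), against 5.49% of the 32851 promoter windows in the reference. TATAAA stood in 3 of 8 (Apoa2, Apoa5 and Apob), against 12.4%, and TTGCNNAA in 1 of 8 (Apob), against 9.56%. TTCNNNGAA and ACANNNTGT stood in 0 of 8, against 7.02% and 5.84%. RefSeq gave some of the 8 genes more than 1 start, and over all 12 windows the counts were 3 for CAAAGNNCA, 5 for TATAAA, 2 for TTGCNNAA, 1 for ACANNNTGT (the second window of Apoa2) and 0 for TTCNNNGAA. These are matches of letters, chosen with the levels already known, and say nothing of binding.

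**Figure D1:**
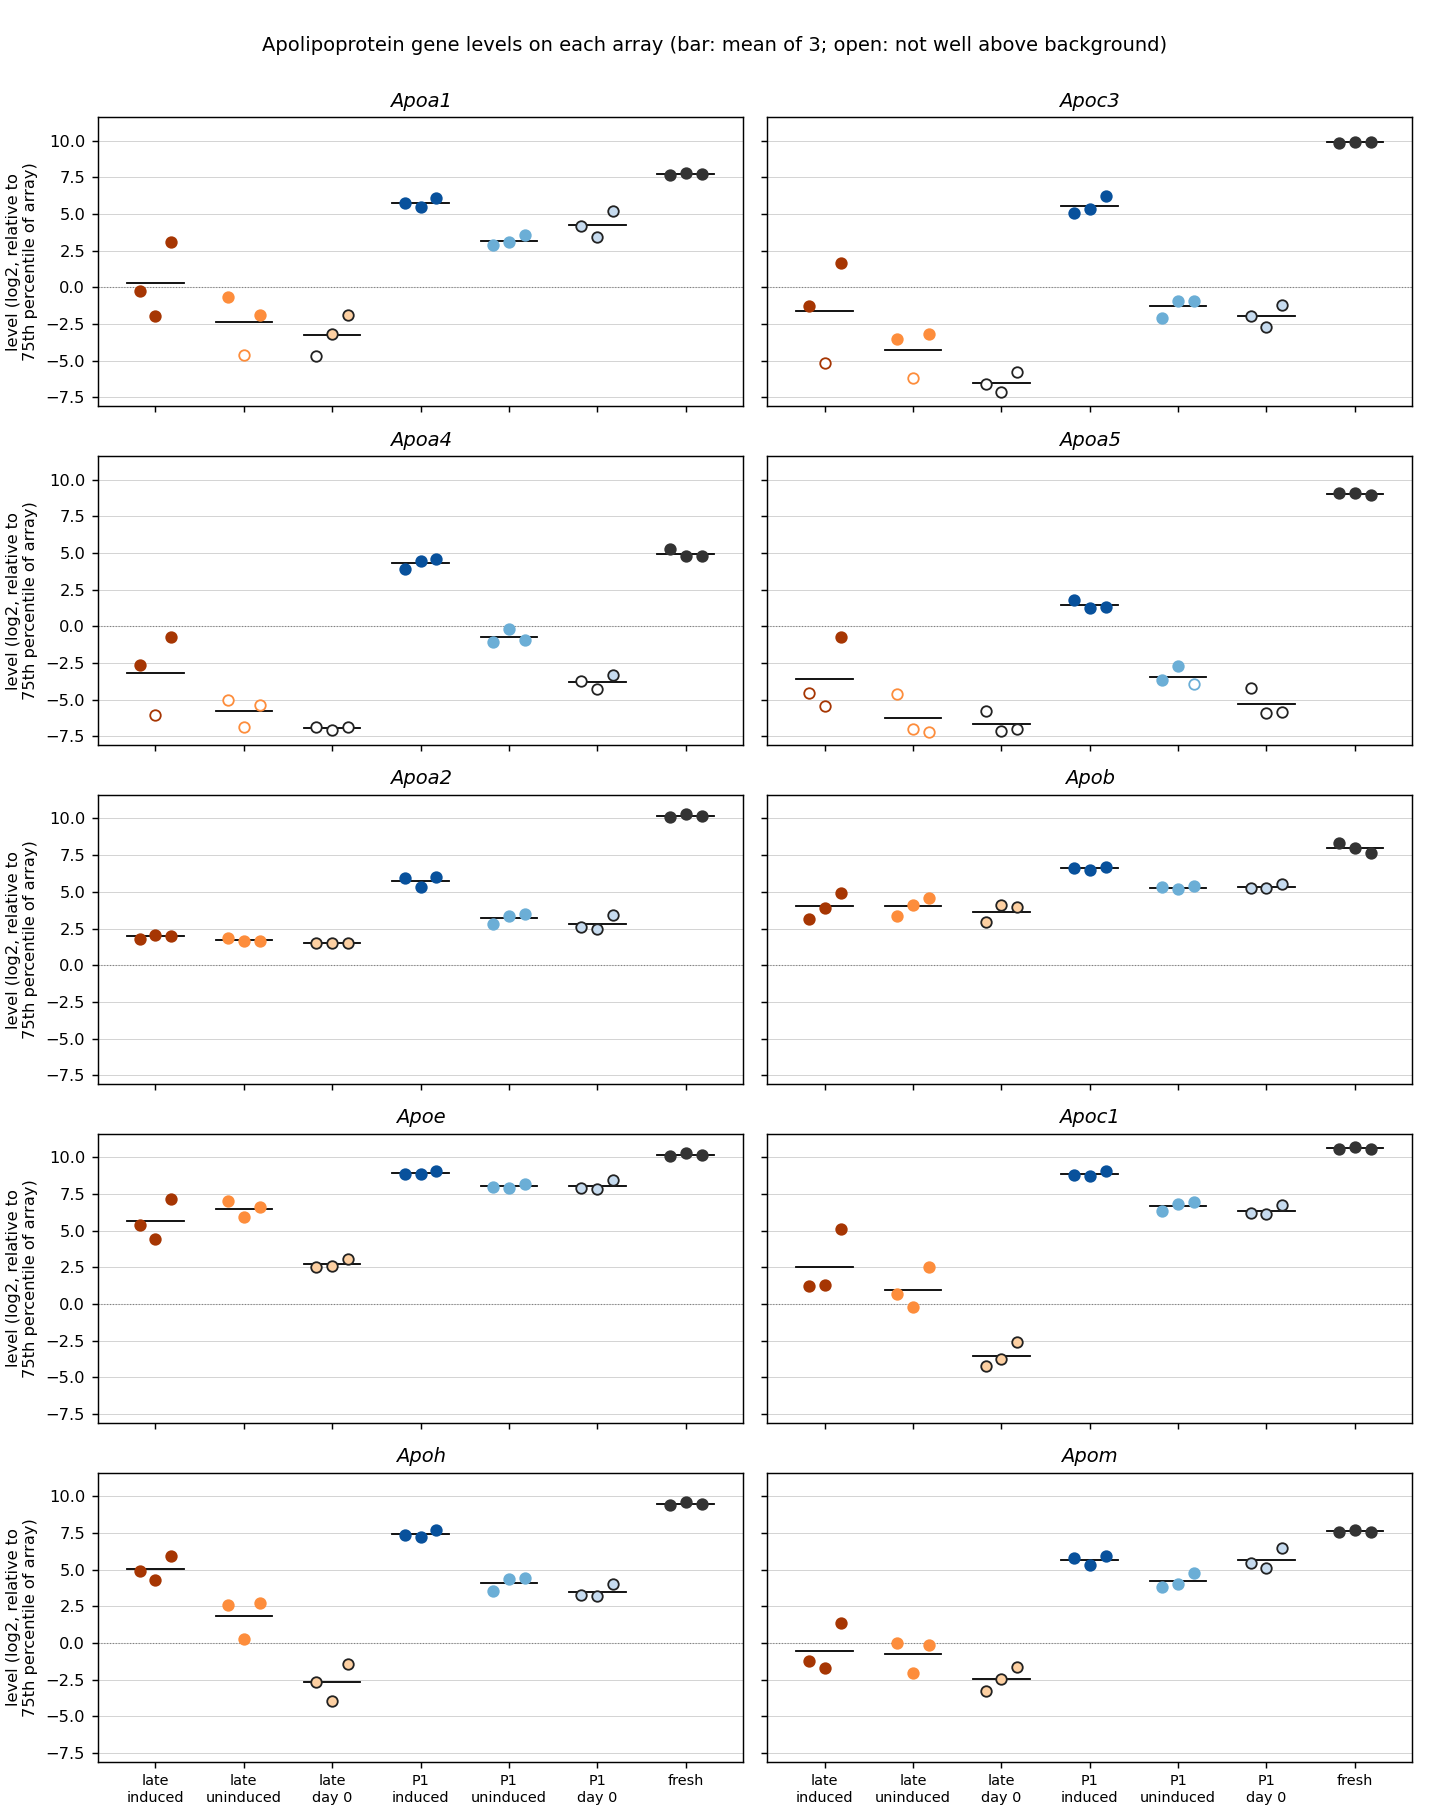
Level of each of the 10 apolipoprotein genes on every array (y axis, log2 relative to the 75th percentile of the array) in 7 groups (x axis), with points for replicates 1 to 3 from left to right, bars for the mean and open points where the probe was not well above background. Fresh hepatocytes are highest for all 10 genes, and late induced points spread by up to an SD of 3.45, for Apoc3.

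All 10 genes were highest in fresh hepatocytes, on every array. P1 induced CLiPs came next for 9 genes, with ranges apart from the groups on both sides for all 9. For Apom, P1 day-0 CLiPs (mean 5.69) and P1 induced CLiPs (5.69) overlapped in that place. Late day-0 CLiPs had the lowest mean for all 10. P1 uninduced and P1 day-0 ranges overlapped for 7 genes, all but Apoa4, Apoa5 and Apom, and late induced and late uninduced ranges overlapped for 9, all but Apoh. Here and below, the share of all genes with ranges apart is not given, so nothing is read from such counts. The SD over the 3 arrays of a group was 0.02 to 0.33 in fresh hepatocytes and 0.09 to 0.61 in P1 induced CLiPs, and 0.14 to 3.45 in late induced CLiPs.

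All 10 genes fell in P1 day-0 CLiPs, the cells that grow out of hepatocytes, when set against fresh hepatocytes. The fall ran from 3.80-fold for Apom to at least 7696-fold for Apoa5, with Apoc3, Apoa4, Apoa2 and Apoh also far down and Apoe and Apob near Apom. Of all tested genes 50.6% were called here, 25.4% higher and 25.2% lower. The median over the 10 genes was -5.14, against -0.01 over the 20631 tested genes. Markers moved in the same comparison: all 10 hepatocyte markers fell (median -5.61), all 8 biliary and progenitor markers rose (median 7.90), 11 of 12 tested Kupffer cell and macrophage markers fell, 6 of 7 liver endothelial markers fell, and of 9 stellate cell and fibroblast markers 6 rose and 1 fell. The mean level of the biliary and progenitor markers was 3.21 to 3.45 in P1 day-0 CLiPs, against -3.95 to -3.54 in fresh hepatocytes. Their part in the result was not tested.

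By the probe that represents each gene, the chromosome 9 genes other than Apoa1 fell furthest. The second Apoa2 probe gave -8.86 ± 0.43, further down than the -8.72 of Apoa4. Apoa5, the activator of lipoprotein lipase action, had levels of -4.19, -5.93 and -5.83 in P1 day-0 CLiPs, not well above background on any array, against 9.06, 9.06 and 8.95 in fresh hepatocytes. It was at least 7696-fold lower (adjusted p = 2.7e-10). Apoc3, which inhibits triglyceride clearance, had levels of -1.94, -2.72 and -1.21 in P1 day-0 CLiPs, against 9.87, 9.90 and 9.90 in fresh hepatocytes. The change was -11.85 ± 0.43 (adjusted p = 1.0e-09). Another Apoc3 probe, not used to represent the gene, gave -2.94 here, against -11.79 for the third. Apoa4, an apolipoprotein of intestinal and liver particles, stood at -3.73, -4.27 and -3.31 in P1 day-0 CLiPs, well above background on 1 array, against 5.25, 4.77 and 4.81 in fresh hepatocytes (-8.72 ± 0.30). The groups lay far apart for all these genes.

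The proteins of high density lipoprotein fell unevenly. Apoa1, its structural protein, had levels of 4.16, 3.46 and 5.18 in P1 day-0 CLiPs, against 7.63, 7.80 and 7.74 in fresh hepatocytes (-3.46 ± 0.36, adjusted p = 5.5e-06). Apoa2, another main protein of these particles, had levels of 2.57, 2.49 and 3.39 in P1 day-0 CLiPs, against 10.08, 10.28 and 10.14 in fresh hepatocytes (-7.35 ± 0.27, adjusted p = 1.1e-09). Apom, a lipocalin that carries sphingosine-1-phosphate on these particles, had levels of 5.49, 5.14 and 6.45 in P1 day-0 CLiPs, against 7.56, 7.70 and 7.59 in fresh hepatocytes (-1.93 ± 0.33, adjusted p = 0.00030). Apoa2 fell by the most of these 3, and no groups overlapped.

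Apob, Apoe, Apoc1 and Apoh fell as well. Apob had levels of 5.23, 5.29 and 5.57 in P1 day-0 CLiPs, against 8.32, 8.00 and 7.66 in fresh hepatocytes (-2.63 ± 0.16, adjusted p = 6.5e-08). Apoe had levels of 7.91, 7.85 and 8.44 in P1 day-0 CLiPs, against 10.12, 10.28 and 10.14 in fresh hepatocytes (-2.12 ± 0.16, adjusted p = 3.3e-07). Its call did not hold under other scalings: quantile normalization gave -0.89 and normexp background correction -0.83, both under 2-fold. The second Apoe probe, under the scaling of the main fits, gave -3.17 ± 0.22 (adjusted p = 2.0e-07). Apoe is also made by macrophages, and most macrophage markers were dim in CLiPs (above); their part in the Apoe difference was not tested. Apoc1, an inhibitor of receptor uptake and of lipid transfer, had levels of 6.18, 6.13 and 6.75 in P1 day-0 CLiPs, against 10.59, 10.69 and 10.59 in fresh hepatocytes (-4.27 ± 0.20). Apoh, beta-2-glycoprotein I, which binds anionic phospholipid, had levels of 3.27, 3.21 and 4.02 in P1 day-0 CLiPs, against 9.40, 9.60 and 9.50 in fresh hepatocytes (-6.00 ± 0.26, adjusted p = 4.5e-09).

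**Figure D2:**
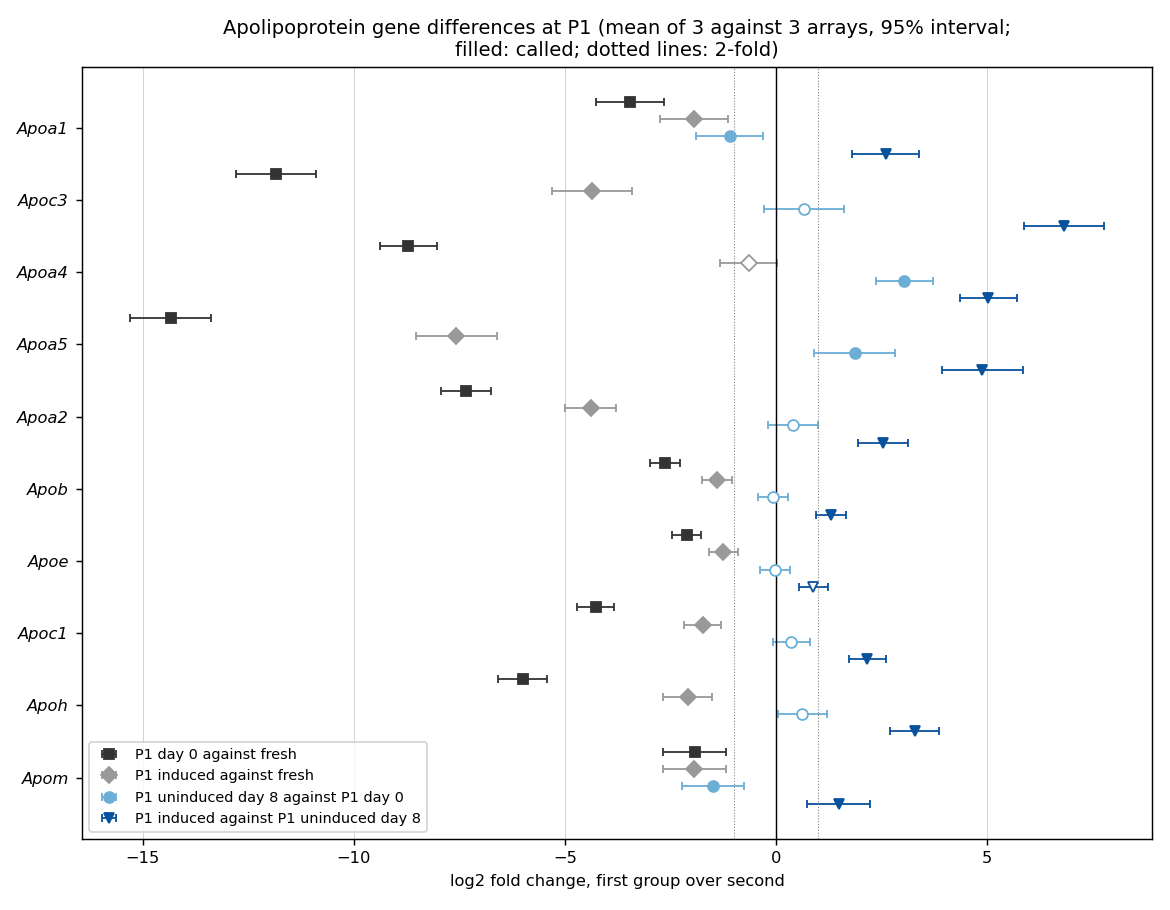
Log2 fold change (x axis, first-named group over second, with 95% interval) of the 10 genes (y axis) in 4 comparisons of P1 CLiPs, filled where called and open where not, with dotted lines at 2-fold. Apoa5 was dim at P1 day 0, so its 2 values that use that group are drawn from signals below background and are not measured sizes. The text gives minimum folds for them. All 10 genes lie left of 0 at P1 day 0 against fresh, and all 10 right of 0 for P1 induced against uninduced, Apoe at 0.89.

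Over 8 days without inducers, 4 of the 10 genes changed in P1 CLiPs. Apoa4 and Apoa5 rose, and Apom and Apoa1 fell, where 11.1% of all tested genes were called, 6.28% higher and 4.87% lower. Apoa4 had levels of -1.08, -0.17 and -0.92 in P1 uninduced CLiPs, against -3.73, -4.27 and -3.31 at day 0, a change of 3.05 ± 0.30 (adjusted p = 4.6e-05). Apoa5 had levels of -3.68, -2.74 and -3.91 in P1 uninduced CLiPs, well above background on 2 arrays, and was dim at day 0, so it was at least 1.36-fold higher (adjusted p = 0.0070). Its second probe was dim in both groups, so the -0.12 it gave is not a measured change. Under normexp the change was 0.45, without a call. Apom had levels of 3.82 to 4.79 in P1 uninduced CLiPs, all below the 5.14 to 6.45 of day 0 (-1.49 ± 0.33, adjusted p = 0.0059).

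Apoa1 was at 2.87, 3.11 and 3.54 in P1 uninduced CLiPs, and its range overlapped that of day 0. The change of -1.09 ± 0.36 had an adjusted p of 0.037, and it missed the call without any 1 of P1 day-0 replicates 1 and 3, P1 uninduced replicates 1 and 2 and P1 induced replicate 1 (adjusted p = 0.050 to 0.12), and under quantile normalization (-0.96) and normexp (-0.98). The other 6 genes had changes between -0.07 ± 0.16 for Apob and 0.66 ± 0.43 for Apoc3, with adjusted p of 0.089 to 0.94. For Apoe the 95% interval of the change was -0.37 to 0.33, so that a 2-fold change in either direction lies outside it. Within slide 4, which held replicates 1 and 2 of both groups, 2 of the 10 genes were called, 1 higher and 1 lower. Slide 5 held only replicate 3 of each group, so no count is given for it.

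Hepatic induction of P1 CLiPs raised 9 of the 10 genes above the uninduced cells of the same day, where 18.7% of all tested genes were called, 9.68% higher and 9.02% lower. Apoc3, Apoa4, Apoa5 and Apoh rose most. The median over the 10 genes was 2.57, against 0.05 over all tested genes. For all 10, every induced array lay above every uninduced array, a count given without its share over all genes. Of the hepatocyte markers 7 of 10 rose as well, and of the biliary and progenitor markers 5 of 8 fell and 1 rose; their part in the result was not tested.

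Apoc3 had levels of 5.05, 5.31 and 6.21 in P1 induced CLiPs, against -2.07, -0.91 and -0.90 in P1 uninduced CLiPs. This rise of 6.82 ± 0.43 (adjusted p = 6.5e-07) was the largest of the 10, and the third Apoc3 probe gave 6.82 as well, whereas the dissenting probe gave 0.25. Apoa4 had levels of 3.88, 4.42 and 4.61 in P1 induced CLiPs, against -1.08, -0.17 and -0.92 in P1 uninduced CLiPs (5.03 ± 0.30, adjusted p = 5.1e-07). Apoa5 had levels of 1.79, 1.23 and 1.32 in P1 induced CLiPs, against -3.68, -2.74 and -3.91 in P1 uninduced CLiPs (4.89 ± 0.43, adjusted p = 7.6e-06). These 3 neighbours on chromosome 9 were 29.6 to 113-fold higher after induction. Apoa1, the fourth, had levels of 5.77, 5.46 and 6.09 in P1 induced CLiPs, against 2.87, 3.11 and 3.54 in P1 uninduced CLiPs (2.60 ± 0.36, adjusted p = 0.00018).

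Apoh rose by 3.29 ± 0.26 (adjusted p = 3.65e-06), with levels of 7.35, 7.20 and 7.67 in P1 induced CLiPs, against 3.57, 4.38 and 4.41 in P1 uninduced CLiPs. Apoa2 rose by 2.54 ± 0.27, with levels of 5.98, 5.36 and 5.99 in P1 induced CLiPs, against 2.82, 3.34 and 3.52 in P1 uninduced CLiPs. Apoc1 rose by 2.17 ± 0.20, with levels of 8.81, 8.76 and 9.09 in P1 induced CLiPs, against 6.35, 6.80 and 6.99 in P1 uninduced CLiPs. Apom, Apob and Apoe differed least. Apom rose by 1.49 ± 0.33 (adjusted p = 0.0044), with levels of 5.80, 5.33 and 5.93 in P1 induced CLiPs, against 3.82 to 4.79 in P1 uninduced CLiPs. Within slide 5, which held only replicate 3 of the uninduced cells, the Apom change was 0.84. Apob rose by 1.30 ± 0.16, with levels of 6.61, 6.50 and 6.68 in P1 induced CLiPs, against 5.34, 5.17 and 5.37 in P1 uninduced CLiPs. For Apob, quantile normalization gave 0.98 and normexp 0.90, both under 2-fold. Apoe had levels of 8.87, 8.84 and 9.10 in P1 induced CLiPs, against 7.98, 7.95 and 8.21 in P1 uninduced CLiPs, a difference of 0.89 ± 0.16 that passed the p threshold (adjusted p = 0.00094) but not the 2-fold one. The second Apoe probe gave 1.15 (adjusted p = 0.0018) and the mean of both probes 1.02 (adjusted p = 0.0013), and both pass the 2-fold threshold.

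After induction, P1 CLiPs still had less than fresh hepatocytes of 9 genes, where 39.1% of all tested genes were called, 20.3% higher and 18.8% lower. Apoa4 was the exception, at 3.88 to 4.61 in P1 induced CLiPs, against 4.77 to 5.25 in fresh hepatocytes. Its difference of -0.64 ± 0.30 (adjusted p = 0.082) had a 95% interval of -1.32 to 0.04. Apoa5 (-7.58 ± 0.43), Apoa2 (-4.39 ± 0.27) and Apoc3 (-4.36 ± 0.43) remained furthest below fresh hepatocytes. The differences were -2.09 ± 0.26 for Apoh, -1.95 ± 0.36 for Apoa1, -1.93 ± 0.33 for Apom, -1.74 ± 0.20 for Apoc1, -1.40 ± 0.16 for Apob and -1.25 ± 0.16 for Apoe. The last 3 depended on the scaling. Quantile normalization gave -0.71 for Apoc1, -0.92 for Apob and -0.36 for Apoe, and normexp gave -0.80 for Apoc1 and -0.35 for Apoe, each under 2-fold. The second Apoe probe, under the scaling of the main fits, gave -2.12 (adjusted p = 8.3e-06). Quantile normalization moved the median of all genes over fresh hepatocytes to 0.129 in P1 day-0, 0.125 in P1 induced and 0.194 in late induced CLiPs, and normexp to 0.136 in late induced CLiPs.

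At passage 11 or 12, day-0 CLiPs had less than P1 day-0 CLiPs of 9 of the 10 genes, where 13.4% of all tested genes were called, 4.33% higher and 9.10% lower. Apoc1, Apom and Apoa1 differed most. Apoc1 had levels of -4.24, -3.77 and -2.57 in late day-0 CLiPs, against 6.18, 6.13 and 6.75 in P1 day-0 CLiPs (-9.88 ± 0.81, adjusted p = 1.8e-07). Apom had levels of -3.24, -2.42 and -1.64 in late day-0 CLiPs, against 5.49, 5.14 and 6.45 in P1 day-0 CLiPs (-8.12 ± 0.67). Apoa1 had levels of -4.71, -3.19 and -1.85 in late day-0 CLiPs, well above background on 2 arrays, against 4.16, 3.46 and 5.18 in P1 day-0 CLiPs (-7.51 ± 1.06). These 3 genes were 183 to 941-fold lower, on another scanner.

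Apoh (-6.16 ± 0.62) and Apoe (-5.36 ± 0.45) followed, with Apoh at -2.65, -3.93 and -1.42 and Apoe at 2.50, 2.56 and 3.06 in late day-0 CLiPs. Apob differed by -1.71 ± 0.38 and Apoa2 by -1.31 ± 0.22, with levels of 2.94, 4.08 and 3.95 for Apob and 1.52, 1.49 and 1.53 for Apoa2 in late day-0 CLiPs. The second Apoa2 probe differed by more, by -3.36 (adjusted p = 1.2e-05). Apoc3 and Apoa4 were dim in late day-0 CLiPs, at least 7.12-fold and at least 2.03-fold lower than at P1. Apoa4 was well above background on only 1 P1 day-0 array, so its minimum rests on levels near background in both groups. Neither Apoc3 nor Apoa4 was called under normexp or with slide as a random block, and with that block Apob was not either (-1.35, adjusted p = 0.099). Apoa5 was dim in both groups.

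Over 8 days without inducers, 3 of the 7 apolipoprotein genes that could be tested rose in late CLiPs, where 14.6% of all tested genes were called, 8.19% higher and 6.37% lower. Apoc1 had levels of 0.66, -0.19 and 2.50 in late uninduced CLiPs, against -4.24, -3.77 and -2.57 at day 0 (4.52 ± 1.12, adjusted p = 0.012). Apoh had levels of 2.57, 0.26 and 2.71 in late uninduced CLiPs, against -2.65, -3.93 and -1.42 at day 0 (4.51 ± 0.83, adjusted p = 0.0028). Apoe had levels of 7.01, 5.91 and 6.62 in late uninduced CLiPs, against 2.50, 2.56 and 3.06 at day 0 (3.80 ± 0.62, adjusted p = 0.0016). For all 3 the groups did not overlap. In P1 CLiPs the same 8 days gave 0.36 ± 0.20 for Apoc1, 0.62 ± 0.26 for Apoh and -0.02 ± 0.16 for Apoe. The late change exceeded the P1 change by 3.83 ± 0.64 for Apoe (adjusted p = 0.0022) and by 3.89 ± 0.88 for Apoh (adjusted p = 0.017), where 2.85% of all tested genes had a difference called, 1.74% positive and 1.11% negative. For Apoc1 the difference was 4.15 ± 1.14 (adjusted p = 0.055) and for Apom 3.20 ± 0.95 (adjusted p = 0.076). With the replicate block, which pairs samples of the same number, Apoc1 (adjusted p = 0.0028) and Apom (adjusted p = 0.020) were called as well, 4 genes in all.

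The other 4 tested genes missed the call over these 8 days. Apom had levels of -0.03, -2.02 and -0.11 in late uninduced CLiPs, against -3.24, -2.42 and -1.64 at day 0 (1.71 ± 0.87, adjusted p = 0.15). Apoa1 (0.85 ± 1.45) and Apob (0.36 ± 0.50) had overlapping groups, with Apoa1 at -0.67, -4.60 and -1.90 and Apob at 3.35, 4.13 and 4.56 in late uninduced CLiPs. Apoa2 had levels of 1.82, 1.63 and 1.67 in late uninduced CLiPs, 0.20 ± 0.10 above day 0. Its second probe, lower in late CLiPs, gave 0.73. Apoa4, Apoa5 and Apoc3 were not well above background on all arrays of any late group and were not tested.

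**Figure D3:**
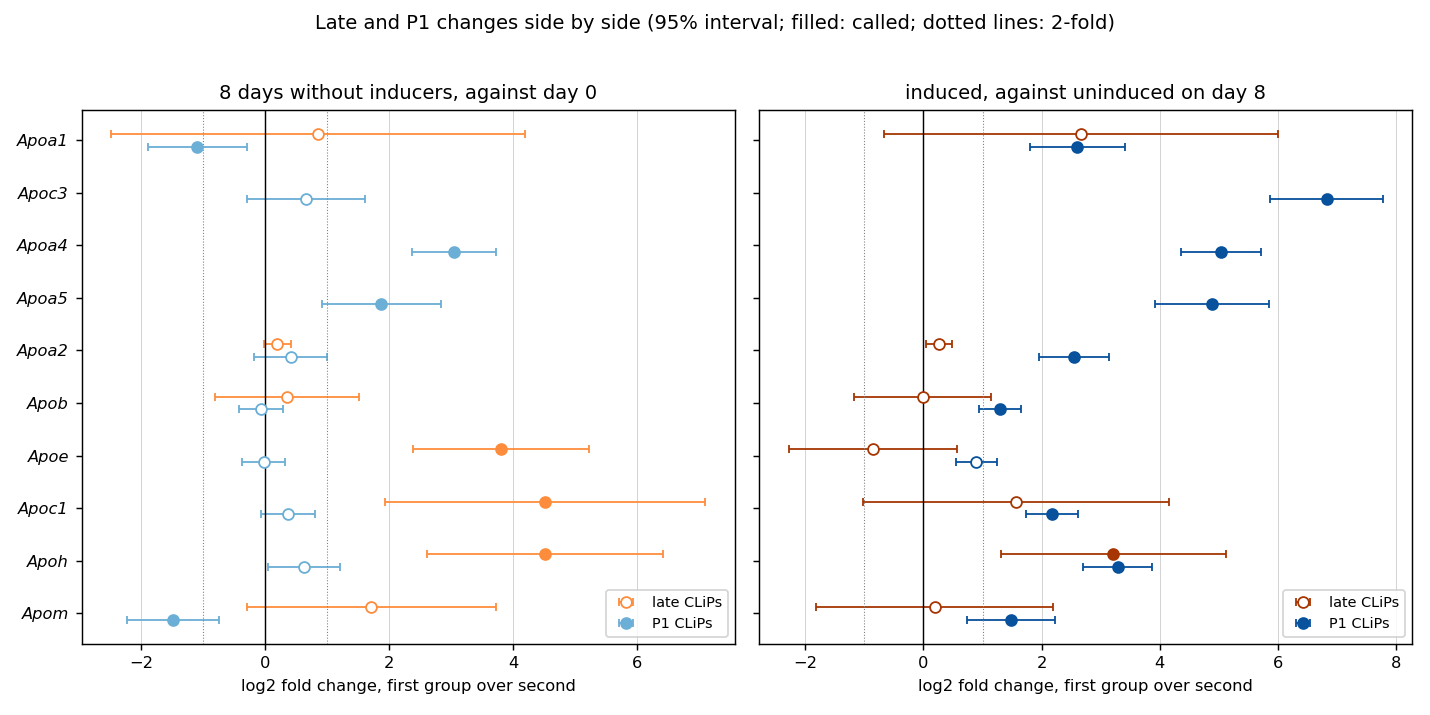
Log2 fold change with 95% interval (x axis) of the 10 genes (y axis) over 8 days without inducers (left) and for induced against uninduced CLiPs (right), late CLiPs above P1 CLiPs, filled where called; genes not tested in late CLiPs have no late point. Late Apoe, Apoc1 and Apoh lie at 3.80 to 4.52 on the left, and on the right the late intervals are wider than the P1 intervals for every tested gene other than Apoa2.

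Hepatic induction of late CLiPs raised 1 of the 7 tested genes, Apoh, where 5.99% of all tested genes were called, 2.94% higher and 3.06% lower. Apoh had levels of 4.94, 4.33 and 5.92 in late induced CLiPs, against 2.57, 0.26 and 2.71 in late uninduced CLiPs (3.22 ± 0.83, adjusted p = 0.032). Every induced array lay above every uninduced array. Set against the P1 rise of 3.29, the difference was -0.07 ± 0.88, with a 95% interval of -1.93 to 1.78. The call was lost without any 1 of the late induced or late uninduced replicates 1 and 2, without late induced replicate 3 (2.78, adjusted p = 0.075) and without late day-0 replicate 1, with adjusted p of 0.051 to 0.077.

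Apoa1, Apoc1 and Apoc3 spread widely in late CLiPs after induction. Apoa1 had levels of -0.27, -1.97 and 3.09 in late induced CLiPs, against -0.67, -4.60 and -1.90 in late uninduced CLiPs (2.67 ± 1.45, adjusted p = 0.24). Apoc1 had levels of 1.23, 1.29 and 5.14 in late induced CLiPs, against 0.66, -0.19 and 2.50 in late uninduced CLiPs (1.56 ± 1.12). Apoc3, which was not tested, had levels of -1.26, -5.18 and 1.69 in late induced CLiPs, against -3.52, -6.17 and -3.18 in late uninduced CLiPs. Replicate 3 of the late induced group, passage 11 and alone on its slide, was the highest array for 9 of the 10 genes. The arrays numbered 3 were also highest for 8 genes in late day-0 CLiPs, 9 in P1 induced, 8 in P1 uninduced and 9 in P1 day-0 CLiPs, and for 4 in late uninduced CLiPs. In the late induced replicate 3 the hepatocyte marker mean was 3.65, against 2.23 and 1.66 for replicates 1 and 2. Apoa4 was at -2.66, -6.06 and -0.74 and Apoa5 at -4.52, -5.46 and -0.70 in late induced CLiPs, while both were dim in late uninduced CLiPs.

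Apoe was not called, with levels of 5.42, 4.42 and 7.14 in late induced CLiPs, against 7.01, 5.91 and 6.62 in late uninduced CLiPs (-0.86 ± 0.62, adjusted p = 0.38). Without late induced replicate 3 the difference was -1.60 (adjusted p = 0.033), a fall by the rule used here. Apom had levels of -1.25, -1.69 and 1.35 in late induced CLiPs (0.19 ± 0.87 against late uninduced CLiPs) and Apob 3.18, 3.92 and 4.91 (-0.01 ± 0.50). Apoa2 had levels of 1.81, 2.08 and 2.01 in late induced CLiPs, against 1.82, 1.63 and 1.67 in late uninduced CLiPs, a difference of 0.26 ± 0.10 with a 95% interval of 0.04 to 0.48. The second Apoa2 probe gave 0.77 ± 0.31, above that interval, without a call (adjusted p = 0.13). In P1 CLiPs Apoa2 rose by 2.54, and by 3.11 on the second probe.

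The induction effect of late CLiPs was smaller than that of P1 CLiPs for Apoa2, by -2.29 ± 0.31 (adjusted p = 0.00010), where 9.93% of all tested genes had a difference called, 4.73% positive and 5.21% negative. Its second probe gave -2.33. No other gene was called by the probe that represents it, with differences of -4.11 ± 1.65 for Apoc3 (adjusted p = 0.097), -2.43 ± 1.21 for Apoa4, -2.19 ± 1.31 for Apoa5, -1.75 ± 0.64 for Apoe (adjusted p = 0.070), -1.31 ± 0.53 for Apob, -1.30 ± 0.95 for Apom, -0.61 ± 1.14 for Apoc1 and 0.07 for Apoa1, with a 95% interval of -3.12 to 3.26. The second Apoa5 probe gave -4.43 (adjusted p = 0.00091) and the mean of both Apoa5 probes -3.31 (adjusted p = 0.034), each a call. That second probe was dim in P1 uninduced and late uninduced CLiPs and well above background on 1 late induced array. Neither value is therefore a measured size. Without late induced replicate 3, 7 genes had a negative difference called: Apoa2, Apoc3 (-5.75), Apoa4 (-3.64), Apoa5 (-3.62), Apoe (-2.49), Apom (-2.24) and Apob (-1.77). With slide as a fixed term or a random block the count was 6. Apoa4 and Apoa5 were dim in late uninduced CLiPs, so their differences here are not measured sizes. With late induced replicate 3 left out, Apoa5 was not well above background on any late induced array that remained. Late induced replicate 3 is alone on its slide, so the fixed slide term largely repeats leaving that array out.

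Against fresh hepatocytes, late induced CLiPs had less of all 10 genes, where 51.3% of all tested genes were called, 24.7% higher and 26.6% lower. Apoa5 (-12.58 ± 0.93, well above background on 1 late induced array) and Apoc3 (-11.47 ± 1.17, on 2) were furthest below. Apoa2 (-8.20 ± 0.22), Apom (-8.15 ± 0.67), Apoa4 (-8.10 ± 0.86, on 2 arrays), Apoc1 (-8.07 ± 0.81) and Apoa1 (-7.44 ± 1.06) followed. The second Apoa2 probe gave -10.71. Apoe (-4.53 ± 0.45), Apoh (-4.44 ± 0.62) and Apob (-3.99 ± 0.38) were nearest. P1 induced and late induced CLiPs were set against the same fresh arrays.

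The genes beside the 2 apolipoprotein clusters changed in different ways. On chromosome 9, Sik3 (-0.41 ± 0.13 in P1 day-0 CLiPs over fresh hepatocytes) lies beside Apoa1, and Zpr1 (-0.21 ± 0.12) lies beside Apoa5, and neither was called. After P1 induction, Sik3 differed by 0.05 ± 0.13 and Zpr1 by 0.55 ± 0.12 from uninduced cells. On chromosome 7, Apoc4 and Apoc2 lie beside Apoc1, and Tomm40 beside Apoe. Apoc4 fell by 5.95 ± 0.21 in P1 day-0 CLiPs and rose by 2.85 ± 0.21 on induction. Apoc2, the activating cofactor of lipoprotein lipase, rose in both, by 1.08 ± 0.20 in P1 day-0 CLiPs over fresh hepatocytes and by 1.18 ± 0.20 on P1 induction. Tomm40, a mitochondrial import pore gene, differed by 0.41 ± 0.10 and 0.21 ± 0.10 in these comparisons and was not called. Of the other genes shown, Pafah1b2, Cadm1, Relb and Bcam rose in P1 day-0 CLiPs. On P1 induction Bcl3 rose by 1.58 ± 0.13, and Cadm1 fell (-1.26 ± 0.14). These neighbours were chosen after the values of the clusters were seen.

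**Figure D4:**
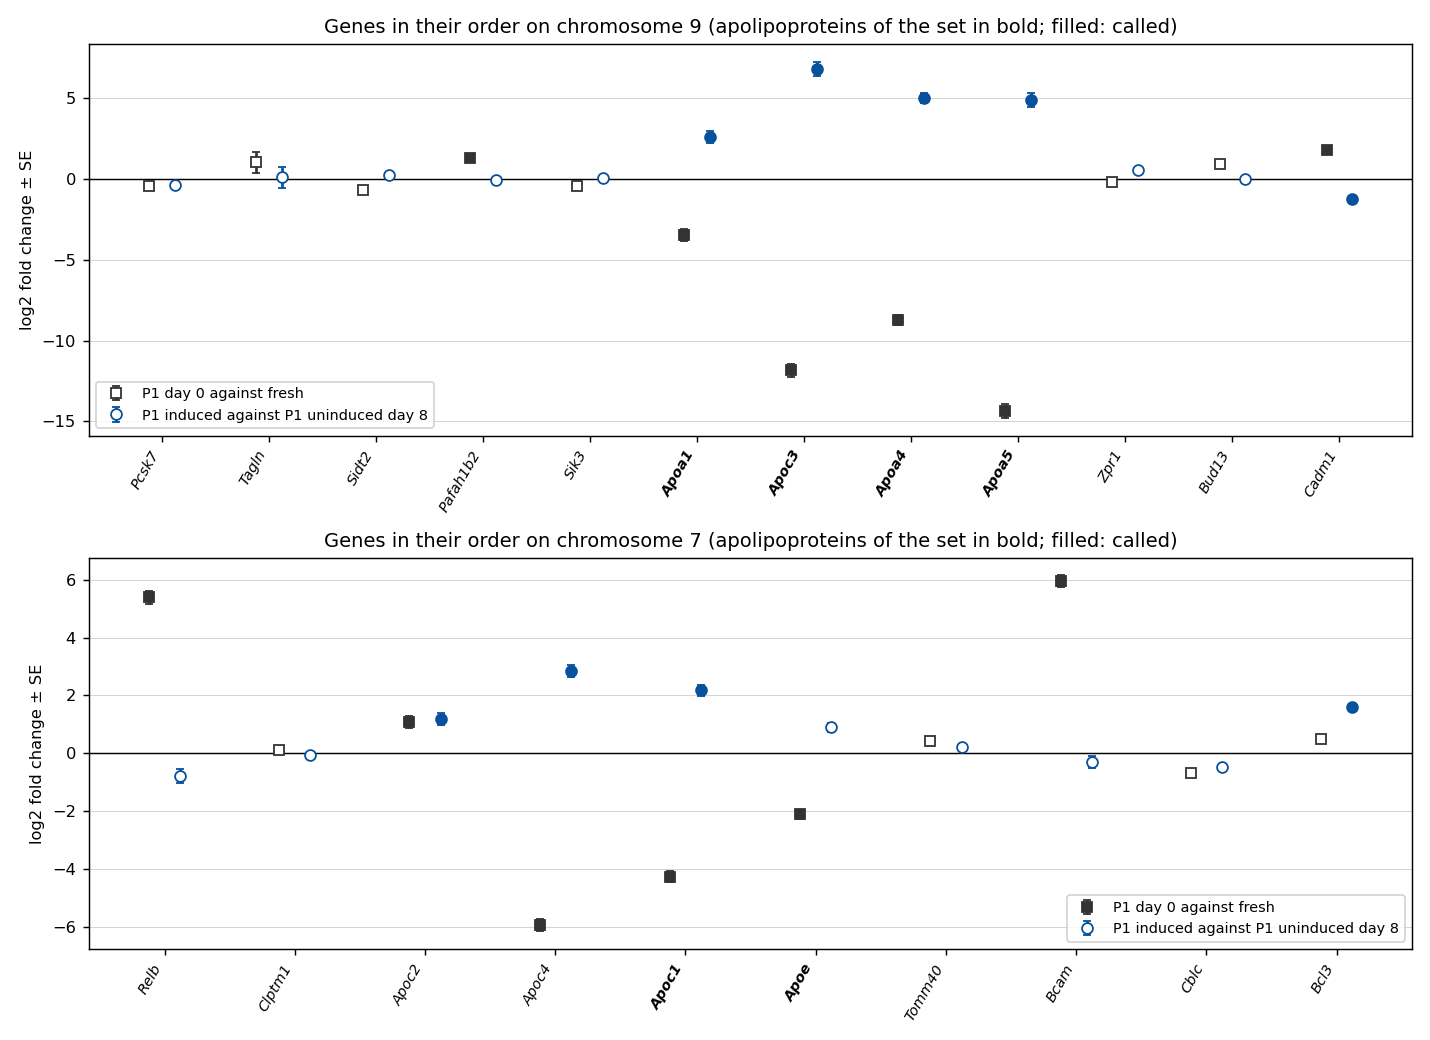
Log2 fold change ± SE (y axis) of genes in their order on chromosomes 9 and 7 (x axis, RefSeq GRCm38.p6, genes with a fitted value only), for P1 day 0 against fresh (squares) and P1 induced against P1 uninduced (circles), filled where called. The 4 chromosome 9 apolipoprotein genes lie between -3.46 and -14.34 and between 2.60 and 6.82, while Sik3 and Zpr1 beside them lie near 0. The -14.34 of Apoa5 uses P1 day-0 signals below background and is not a measured size.

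Genes that build and secrete the lipoprotein particle also changed at P1. Of 20 tested, 14 fell in P1 day-0 CLiPs over fresh hepatocytes (list median -2.17) and none rose. Among all tested genes 25.2% fell and 25.4% rose there. On P1 induction 9.68% of all tested genes rose, and on late induction 2.94%. The difference of the induction effects was called negative for 5.21%. Mttp, which loads lipid onto Apob, fell by 3.37 ± 0.17, with -1.73 ± 0.24 for the RNA-editing enzyme gene Apobec1 and -4.88 ± 0.29 for its cofactor gene A1cf. On P1 induction 14 of 20 rose and none fell (median 1.84), with Mttp at 2.42 ± 0.17, Apobec1 at 2.46 ± 0.24 and Tm6sf2, which acts in particle lipidation, at 2.66 ± 0.16. In late CLiPs induction raised 1 of 16, Tm6sf2 (1.24 ± 0.28, adjusted p = 0.021), and Mttp had 0.60 ± 0.41 and Apobec1 -0.02 ± 0.59. The late induction effect was smaller than the P1 effect for 8 of the 20, by -1.82 ± 0.45 for Mttp and -2.48 ± 0.64 for Apobec1. Mttp rose over 8 days without inducers in late CLiPs (1.71 ± 0.41), whereas it had -0.96 ± 0.17 in P1 CLiPs, a difference of 2.67 ± 0.45 (adjusted p = 0.0022).

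Of 15 other apolipoprotein and particle-associated genes tested, 8 fell and 2 rose in P1 day-0 CLiPs over fresh hepatocytes. Among all tested genes 25.2% fell and 25.4% rose there. Apof (-10.44 ± 0.27) and Apon (-9.02 ± 0.25) fell furthest. On P1 induction 9 of 15 rose, Apon by 6.43 ± 0.25 and Apof by 5.87 ± 0.27, and none fell, beside 9.68% higher among all tested genes. In late CLiPs, induction gave no call among 12 (limma, adjusted p and fold as above). Only 5.99% of all tested genes were called there, so nothing is read from this. Lcn2, a lipocalin of the acute phase, was 7.71 ± 0.27 higher in P1 induced CLiPs than in fresh hepatocytes.

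The enzymes and transfer proteins that remodel particles in plasma fell for 7 of 11 tested genes in P1 day-0 CLiPs, and 2 rose. Among all tested genes 25.2% fell and 25.4% rose there. Lcat, which esterifies the cholesterol of high density lipoprotein, fell by 7.18 ± 0.23 and rose by 5.00 ± 0.23 on P1 induction, but had 1.58 ± 0.56 (adjusted p = 0.087) in late CLiPs, a difference of -3.42 ± 0.61 between the effects (adjusted p = 0.00090). Lipc, hepatic lipase, was at least 76.7-fold lower in P1 day-0 CLiPs than in fresh hepatocytes and dim in all 6 CLiP groups. On P1 induction 8 of 11 were called higher, 1 of them Lipc, which was below background in both groups and so has no measured rise. Of all tested genes 9.68% were called higher there.

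Among 16 receptors and adaptors, 5 fell and 2 rose in P1 day-0 CLiPs, and 5 rose and 2 fell on P1 induction. In P1 day-0 CLiPs these counts (median -0.50) stand beside 25.2% lower and 25.4% higher among all tested genes, and on induction (median 0.47) beside 9.68% higher and 9.02% lower, and nothing is read from them about the list. Lrp1, a remnant receptor that binds Apoe, fell by 3.43 ± 0.13, and Scarb1, the high density lipoprotein receptor, fell by 2.59 ± 0.11. Pdzk1, the Scarb1 adaptor, rose by 4.08 ± 0.20 on P1 induction, Lrp1 by 2.14 ± 0.13 and Scarb1 by 2.03 ± 0.11. In late CLiPs induction raised Lrp1 by 2.42 ± 0.49, and Scarb1 had 0.16 ± 0.10.

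The cholesterol exporter Abca1, which lipidates Apoa1, was dim in late day-0 CLiPs and at least 35.4-fold higher after 8 days without inducers (adjusted p = 7.3e-05). In P1 CLiPs the same change was -0.17 ± 0.17. Abcg1, another exporter, rose over these days in both, by 3.58 ± 0.49 in late and 3.49 ± 0.49 in P1 CLiPs. Of 8 export genes tested, 5 fell and 1 rose in P1 day-0 CLiPs over fresh hepatocytes, with Abcg5 at -8.50 ± 0.35. On P1 induction 2 rose, Abca1 (2.43 ± 0.17) and Abcg5 (1.76 ± 0.35). Among all tested genes 25.2% fell and 25.4% rose in P1 day-0 CLiPs, and 9.68% rose on P1 induction.

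Known regulators of apolipoprotein genes fell for 22 of 31 tested genes in P1 day-0 CLiPs, and 2 rose. Among all tested genes 25.2% fell and 25.4% rose there. Hnf4a, a nuclear receptor that acts on many of these promoters, fell by 1.31 ± 0.16, while Ppara (-6.22 ± 0.26), Creb3l3 (-6.20 ± 0.14) and Cebpa (-5.50 ± 0.21) fell further. On P1 induction 16 of 31 rose and 2 fell, with Creb3l3 at 2.92 ± 0.14, Ppara at 2.73 ± 0.26 and Hnf4a at 1.31 ± 0.16. Of all tested genes 9.68% rose and 9.02% fell on P1 induction. In late CLiPs induction raised 5 of 31 and lowered 1, with Cebpa at 2.01 ± 0.30 and Rxra at 1.55 ± 0.16, while Hnf4a had 0.44 ± 0.34. Of all tested genes 2.94% rose and 3.06% fell on late induction. The difference between the induction effects was -0.87 ± 0.38 for Hnf4a (adjusted p = 0.13). Over 8 days without inducers 13 of 31 rose in late CLiPs, among them Onecut1 (2.93 ± 0.34) and Nr1h3 (1.17 ± 0.31), the oxysterol receptor LXR alpha, known to act on Apoe, Apoc1 and Abca1. In P1 CLiPs 3 of 31 rose and Nr1h3 had -0.09 ± 0.17. Over these days 8.19% of all tested genes rose in late and 6.28% in P1 CLiPs, and nothing is read from the P1 count.

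Genes with the most similar course over the 7 group means were looked up for the 6 members measured on all 21 arrays, among 14840 genes, as a description without a test. The closest to Apoc1 was Hpn, a liver serine protease (r = 0.999), to Apoa2 it was Etnk2 (0.999), and the next after each was a probe named only by position. Apoe ran closest to Sh3pxd2a (0.992) and Alb, serum albumin (0.9904), and Apoh to Cyp2d10 (0.994) and Epha1 (0.987). Apom ran closest to Kcnma1 (0.994) and Plcxd2 (0.9904), and Apob to Gpr149 (0.997) and Gramd3 (0.996). All these correlations are over 7 points that share the step between the scanners.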

How the data were processed

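RNA of 21 samples was labelled with Cy3 and hybridised to one-colour Agilent arrays, per the labels' protocols. The scanner files hold the processed signal, an intensity that was background-subtracted and detrended, per the file headers, by Feature Extraction (version 11.5.1.1 at fresh and P1, version 10.7.3.1 at the late passages). Both deposited tables of the authors hold log2 values, checked against the same signals scaled to the 75th percentile: up to a constant per array, and with probes centred in the table that holds the late arrays, 100% of values lay within 0.001 and the largest deviation was 2.03e-06. They were used as an alternative, but they repeat the scaling of the main fits and so are no separate check of it.

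Control spots and outlier flags were left out, spots of a probe averaged on the log2 scale and the 75th percentile of each array subtracted (a signal of 881 to 1241 for late CLiPs, 466 to 789 for P1 CLiPs and 291 to 332 for fresh hepatocytes; 0 saturated spots; 46.1% to 60.5% of probes well above background, by flags in the deposited files). Late files were named through the probe names of a fresh file. Each gene took the probe whose mean over all arrays was highest, and was tested if well above background on all arrays of at least 1 group of the fit. Group means were fitted with limma 3.58.1 in R 4.3.3 over the 12 fresh and P1 arrays, the 9 late arrays, or all 21 for late against P1 or fresh, with 20631, 21326 and 22366 genes tested. The P1 fit was tested on simulated data with independent noise, for P1 induced against uninduced only. The late fit and the fit of all 21 arrays were not. Alternatives were quantile normalization, normexp (on the median signal for late arrays), no filter on dim probes, the mean of all probes, slide terms, the replicate block and each replicate left out.

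Replicate numbers come from the titles. Over all genes, same-numbered deviations correlated at 0.18 to 0.41 for P1 uninduced with day 0 and 0.26 to 0.32 for late uninduced with day 0. They correlated at 0.37 to 0.53 for late induced with uninduced and 0.07 to 0.28 for P1 induced with uninduced. All but the last were taken as paired in the replicate block, while the main fits use no pairing. Same-numbered P1 day-0 and P1 uninduced arrays shared a slide, so pairing and slide cannot be told apart there. The 0.07 is from replicate 2, whose P1 induced and P1 uninduced arrays lay on different slides. The members, lists, motifs and alternatives were chosen with earlier results of these data known. All 10 members are reported in each comparison; of each list, its counts and examples from a core of 12 genes and up to 4 of its largest called changes, some of which are not reported here. Further software was statmod 1.5.0, Python 3.11.15, matplotlib 3.10.9, numpy 2.4.6 and pandas 2.3.3. RefSeq positions and promoters are on GRCm38.p6.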

Additional observations from a re-analysis of the deposited data

Results flagged for a closer look

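Changes under the same contrast differed between late and P1 CLiPs, by the test of the difference itself, for 3 genes. For Apoa2 the induction effect was smaller in late CLiPs (a log2 difference of -2.29, adjusted p = 0.00010 in limma), with 0.26 in late and 2.54 in P1 CLiPs. The second Apoa2 probe gave 0.77 in late and 3.11 in P1 CLiPs, a difference of -2.33. For Apoe the change over 8 days without inducers was 3.83 higher in late CLiPs (adjusted p = 0.0022), with 3.80 in late and -0.02 in P1 CLiPs. For Apoh that change was 3.89 higher (adjusted p = 0.017), with 4.51 in late and 0.62 in P1 CLiPs, and the call was lost without P1 day-0 replicate 3, P1 uninduced replicate 1 or late uninduced replicate 3 (adjusted p = 0.052 to 0.054). Passage, scanner and software cannot be told apart in these comparisons.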

How the results depend on the processing

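With 3 arrays a group, the SEs of the comparisons within late CLiPs ran from 0.10 for Apoa2 to 1.45 for Apoa1, and a dim probe allows only a bound. The authors' deposited tables repeat the scaling of the main fits, so they are no separate check of it. They could not give late day 0 against P1 day 0 or either late minus P1 difference. Slide as a fixed term could not be fitted for comparisons with fresh hepatocytes or between late and P1 day 0. Counts of called genes among the 10 kept within 1.5 times of their values under the other settings tried, with these exceptions. For P1 uninduced against day 0 (4 genes), normexp and slide 4 alone gave 2 each. Slide 5 held only replicate 3 of each group, so its count is left out. For late induced against uninduced (1 gene), testing without the filter on dim probes gave 0 and leaving out single replicates 0 to 1. For the late minus P1 induction effect (1 gene), normexp gave 4, the mean of all probes 2, slide as a random block 6, slide as a fixed term 6, the replicate block 4 and leaving out single replicates 1 to 7. These counts include Apoa4 and Apoa5, dim in late uninduced CLiPs, under normexp, the random slide block and without late induced replicate 3. The fixed slide term sets aside late induced replicate 3, alone on its slide, so it is no separate check from leaving that array out. For the late minus P1 uninduced change (2 genes), slide as a random block, slide as a fixed term and the replicate block gave 4 each. Single replicates left out gave 1 to 4, the lowest without P1 day-0 replicate 3, P1 uninduced replicate 1 or late uninduced replicate 3. In the induction difference the block called Apob, Apoc3 and Apoe as well; the P1 numbers are not known to pair there. The replicate block changed no other call. The fits within one slide were chosen after seeing the data.

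Signs turned only for changes without a call. For P1 uninduced against day 0, Apob had 0.13 under quantile normalization and 0.14 under normexp (-0.14 to 0.031 with single replicates left out), and Apoe 0.14, 0.11 and, within slide 4, 0.084 (-0.13 to 0.17). In the induction difference, Apoh had 0.39 under quantile normalization and 0.35 under normexp (-0.86 to 0.36), Apoa1 -0.33 under normexp, -0.54 with slide random and -1.12 with slide fixed (-1.33 to 1.20), and Apoc1 -1.90 to 0.15. For late induced against uninduced, Apom had -0.18 with slide random and -0.75 with slide fixed and within slide 6 (-0.75 to 0.77), and Apob -0.46 to 0.40. The fixed slide term and slide 6 alone both set aside late induced replicate 3, so they are the same check. For late uninduced against day 0, Apob had -0.0013 to 0.69 and Apoa1 -0.0042 to 1.96.

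Counts over all genes moved by over 1.5 times under normexp for late uninduced against day 0 (1998 against 3104), late induced against uninduced (810 against 1278) and late against P1 day 0 (1612 against 3004). Without the dim filter, late against P1 day 0 had 7421 and late induced against fresh 21211 (against 11476). The replicate block gave 1025 against 637 for the uninduced change. With no fold threshold the counts were 3941 to 17611.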
